A study of Mus musculus with 16 samples.

Results

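Among the autosomal protein-coding genes of mouse embryonic stem cells (mESCs), 1481 had a peak of RNA polymerase II (Pol II) at the promoter in wild type (WT) cells and none near it in cells without ATXN7L3. They were chosen by 2 deposited peak lists: a peak of the WT mESC Pol II list within 1000 bp of the annotated transcription start site (TSS), and no peak of the KO list within 5000 bp of it. They make up 1481 of 20807 autosomal protein-coding genes, and 20.2% of the 7336 with a WT promoter peak. This share is the background against which the gene families below are read. Of the other WT promoters, 5663 also had a KO peak within 1000 bp and are called kept, while 192 had the nearest KO peak between 1000 and 5000 bp away. In the opposite direction, 891 promoters, or 13.4% of the 6672 with a KO promoter peak, had a KO peak and no WT peak within 5000 bp. The members are called lost below as a short name for these peak calls. A promoter without a called peak can still carry Pol II.

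The study asked what the ubiquitin-removing modules that hold USP22 or ATXN7L3 do in mice. As part of this it mapped monoubiquitylated histone H2B (H2Bub1) in mESCs and in mouse embryonic fibroblasts (MEFs). Each cell type was sampled as Atxn7l3+/+ (WT) and Atxn7l3-/- (KO), on a mixed DBA/2 x C57BL/6 background, with Pol II precipitated by an antibody to its largest subunit RPB1 and H2Bub1 by its own antibody. The mESCs were grown without feeder cells, after a start on feeders, in serum with LIF and the inhibitors PD0325901 and CHIR99021. The study's methods describe blastocysts plated on gelatin and name no feeders. The fibroblast cultures were grown from embryos at mid-gestation. The null allele came through the germ line, from crosses of heterozygous mice, and so was present from fertilisation. The labels do not name the mESC line or embryos behind each library. Each of the 8 peak lists used is 1 library, so a genotype difference cannot be set against the spread between replicates, and p-values are left out. The intervals printed are exact 95% binomial intervals over genes. They cover counting error only, and genes that share a peak or a neighbourhood are not independent.

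ATXN7L3 is an adaptor of the deubiquitylating module of the SAGA co-activator, which holds the ubiquitin protease USP22 and takes ubiquitin off H2B. It also serves the related proteases USP27X and USP51. The mark is laid down behind elongating Pol II by the RNF20 and RNF40 ligase together with the PAF complex, so it sits over transcribed gene bodies. Pol II itself gives its sharpest ChIP signal just downstream of the TSS, where it pauses before elongation. The Atxn7l3 promoter had a Pol II peak in all 4 libraries (fold 3.61 and 3.71 in the mESC lists, 20.9 and 23.4 in the MEF lists, WT first). The loxP sites of the targeted allele flank exon 2 to exon 12, so the promoter peak does not check the genotype. Between exons 3 and 11 of the RefSeq curated transcripts (chr11:102292136-102294642), H2Bub1 peaks covered 100% in the WT and 0% in the KO mESC library, and 10.6% and 4.43% in WT and KO MEFs. Pol II peaks there covered 16.7% in WT and 5.54% in KO mESCs, in both as the end of a peak over the last exon. In the MEF lists they covered 7.70% (WT) and 0% (KO). The last exon, exon 13, lies outside the flanked stretch and held Pol II peaks in all 4 libraries. Of 11 mESC markers, 9 had a Pol II promoter peak in the WT library and 8 in the KO one. Of 11 fibroblast markers none had one in either mESC library, while 11 had one in WT MEFs and 10 in KO MEFs. None of the 6 primitive endoderm or 5 trophoblast markers had a peak in either mESC library, while of 8 markers of the epiblast and germ layers 2 had one in the WT library, Pou3f1 and Sox1, and 0 in the KO library. The summits of the Pou3f1 and Sox1 peaks lay 863 and 1026 bp downstream of the TSS. In a longer list of 20 early differentiation genes, 9 had a WT peak, of which 5 were kept and 2, Pou3f1 and Sox1, lost. In that list 1 gene was gained in KO cells. In a longer list of 14 trophoblast genes, 1 had a WT peak and kept it and 2 had a KO peak only.

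Promoters with strong WT peaks among the members are printed here, to show the sequence behind the clearest of the lost calls. They are not typical of the members: their WT folds ran from 4.83 to 7.16, where the members' median was 3.59, and promoters without a MEF peak are more frequent among them than among all members. The rule took, among members whose peak summit lay within 250 bp of the TSS and with 1 autosome left out of the choice, the 3 highest with a Pol II peak in both MEF libraries and the 3 highest with a peak in neither. Each line gives the 200 bases before the TSS on the gene's strand, read 5′ to 3′ from the RefSeq genome of build GRCm38.p6, the same assembly as the mm10 of the peak lists. Capitals mark CG dinucleotides (CpG), which are frequent in promoters used in most tissues.
Zfp281, chr1:136624701-136624900, plus strand: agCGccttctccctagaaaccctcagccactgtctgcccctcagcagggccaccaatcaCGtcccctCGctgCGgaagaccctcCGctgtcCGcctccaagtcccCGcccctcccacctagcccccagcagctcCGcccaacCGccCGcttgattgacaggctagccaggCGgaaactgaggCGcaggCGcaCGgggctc
Pan2, chr10:128303135-128303334, plus strand: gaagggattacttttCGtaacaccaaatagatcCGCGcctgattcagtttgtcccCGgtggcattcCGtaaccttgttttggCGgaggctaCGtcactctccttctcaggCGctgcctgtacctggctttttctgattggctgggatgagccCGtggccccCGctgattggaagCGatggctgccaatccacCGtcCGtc
Mpv17, chr5:31154252-31154451, minus strand: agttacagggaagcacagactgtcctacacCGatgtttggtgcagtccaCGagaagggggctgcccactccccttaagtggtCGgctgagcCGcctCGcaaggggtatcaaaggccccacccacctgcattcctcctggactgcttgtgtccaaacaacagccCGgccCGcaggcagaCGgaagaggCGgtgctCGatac
Lat, chr7:126369571-126369770, minus strand: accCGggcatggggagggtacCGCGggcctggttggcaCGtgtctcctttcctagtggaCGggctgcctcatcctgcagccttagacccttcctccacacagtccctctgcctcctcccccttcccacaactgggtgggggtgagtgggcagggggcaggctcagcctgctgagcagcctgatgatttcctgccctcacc
Elavl3, chr9:22052024-22052223, minus strand: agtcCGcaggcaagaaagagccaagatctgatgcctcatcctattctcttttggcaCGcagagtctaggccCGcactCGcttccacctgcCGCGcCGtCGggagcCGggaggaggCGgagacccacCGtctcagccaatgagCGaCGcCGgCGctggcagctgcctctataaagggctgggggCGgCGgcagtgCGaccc
Slc29a1, chr17:45599607-45599806, minus strand: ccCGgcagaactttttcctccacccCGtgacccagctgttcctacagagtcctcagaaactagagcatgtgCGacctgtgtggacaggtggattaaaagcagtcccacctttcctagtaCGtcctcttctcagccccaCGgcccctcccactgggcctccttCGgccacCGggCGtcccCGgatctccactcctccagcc
Zfp281 held 14 CpGs in these 200 bases, Pan2 13 and Mpv17 10. Of the genes without a MEF peak, Lat held 5, Slc29a1 9 and Elavl3, an RNA-binding protein gene of neurons, 18.

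The WT peaks of the members were low. Fold enrichment, the authors' ratio of ChIP to background at the summit, had a median of 3.59 over the 1481 lost promoters, with quartiles of 3.21 and 4.08, against 4.79 over the kept ones. The highest member stood at 7.32, while kept promoters reached 44.9. Median peak width was 445 bp for lost and 764 bp for kept promoters, and median −log10 q was 5.25 and 11.0. The summit lay at nearly the same place, a median of 76 bp downstream of the TSS for lost and 73 bp for kept promoters. These values come from the list that chose the members, so they describe them and test nothing.

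The 12 members with the highest WT fold lay between 5.98 and 7.32. Gab1, an adaptor of receptor tyrosine kinases, had the highest WT fold at 7.32, with its summit 577 bp downstream of the TSS and its nearest KO peak 140687 bp away. Zfp281, a zinc finger factor that acts with the pluripotency network, followed at 7.16, and its nearest KO peak was 209303 bp away. Pan2, a catalytic subunit of a poly(A) nuclease, stood at 6.78 and Mpv17, a protein of the inner mitochondrial membrane, at 6.66. Vcpkmt, a lysine methyltransferase, and Ddah2, an enzyme that clears methylated arginines, shared a value of 6.44. Ppp2r3d, Vps4b and Gpbp1l1 were each at 6.15. Timm44, part of the mitochondrial protein import motor, was at 6.10, Cyc1, the cytochrome c1 of complex III, at 6.00 and Rrs1, a ribosome assembly factor, at 5.98. All 12 had a Pol II peak in both MEF libraries. Only 97 of the 1481 members had a WT fold above 5.

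The lost share was described by the strength of the WT peak, using the folds of the list that chose the members. When the 7336 WT promoters were split into 5 nearly equal bands of WT fold, the lost share was 38.2% in the lowest band (571 of 1494, 95% interval 35.7 to 40.7) and 35.8% in the next (516 of 1442). It was 18.7% in the middle band (277 of 1481) and 7.55% in the fourth (111 of 1471). In the highest band it was 0.414% (6 of 1448, interval 0.152 to 0.900). The fourth and highest bands meet at a fold that rounds to 6.15, and the 3 members at that value fell in the fourth. The 891 promoters called in KO cells alone had the same shape when banded by KO fold, falling from 24.1% to 0.375%. As the folds come from the lists behind the calls, these shares are a description and no test.

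**Figure D1:**
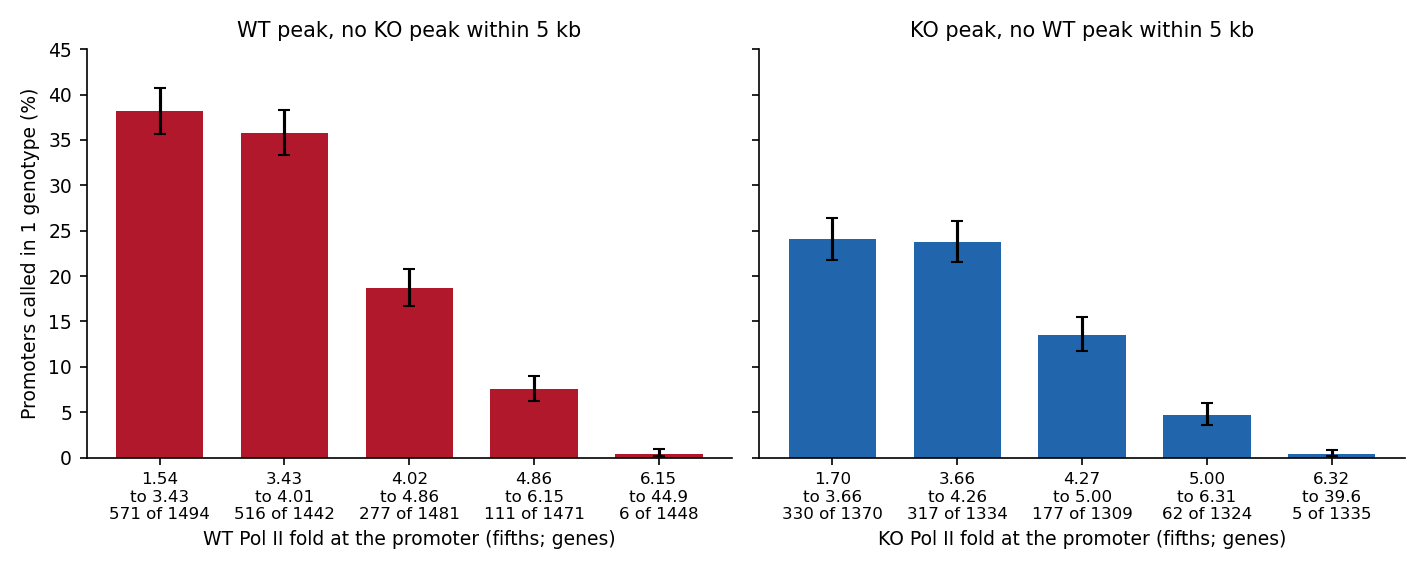
Share of mESC promoters with a Pol II peak in WT and none within 5 kb in KO cells (left), in 5 bands of WT fold, and the reverse in 5 bands of KO fold (right); bars are percent of genes and whiskers exact 95% intervals over genes. Both fall with peak strength, from 38.2% to 0.414% on the left and from 24.1% to 0.375% on the right.

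The 2 mESC Pol II lists differed in size, and the number of members moves with that. The WT list held 17074 peaks and the KO list 11963. When the WT list was reduced to its 11963 best peaks, 989 promoters were lost, 15.9% of 6232, and 1443 were gained, 21.6% of 6672. The order of losses and gains therefore turned with the number of WT peaks admitted. Sequencing depth is not given in the peak lists, and its part in the loss was not tested.

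At the edges of the rule the calls rested on a few bases. The members closest to a KO peak were Gm10778 at 5012 bp, Lyrm7 at 5023 bp and 4933430I17Rik at 5032 bp, with WT folds of 4.14, 2.74 and 5.44. Just outside stood Armh3 at 4987 bp, Wdr74 at 4984 bp and Rps19bp1 at 4983 bp, with WT folds of 3.59, 4.44 and 3.02. On the WT side, the nearest base of the Prom2 peak lay 1000 bp from its TSS, and that of Zbtb46, which is no member, 1006 bp. Most members lay far from the limit, with the nearest KO peak at a median of 37888 bp and quartiles of 16139 and 100787 bp.

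The 1481 members rested on 1325 WT peaks. Of these peaks, 149 served 2 members and 3 served 3 or more, so 308 members shared their peak with another. The largest such group was Gm28051, Gm20604, Gon7 and Ubr7 on chromosome 12, with 1 peak at a fold of 3.41. Chkb, which makes phosphocholine, shared a peak at 3.67 with Gm44502 and C730034F03Rik, and Fbxo24, Lrch4 and Gm20605 shared another at 3.67. Among neighbours in gene order, 518 members stood next to another member, and the longest runs held 5. On chromosome 8 these were Capn9, 2310022B05Rik, Ttc13, Arv1 and Fam89a, with folds of 3.30, 3.24, 5.30, 5.30 and 3.52. On chromosome 2 they were Itpripl1, 1810024B03Rik, Snrnp200, Ciao1 and Tmem127, with folds from 3.30 to 3.54. By chromosome the lost share ran from 15.4% on chromosome 18 (28 of 182, interval 10.5 to 21.5) to 24.8% on chromosome 12 (66 of 266, interval 19.7 to 30.5), and those intervals overlap. Chromosome 11, with more WT promoters, was at 16.2% (124 of 766), and its interval overlaps neither that of chromosome 12 nor that of chromosome 8 (24.3%, 110 of 452, interval 20.4 to 28.6). Median gene length was 21499 bp for lost and 23453 bp for kept genes. A TSS on the opposite strand within 1000 bp was present for 282 of 1481 lost and 1262 of 5663 kept promoters.

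Members came from every gene family examined that had more than 7 WT promoters, but to unequal extents. Cytosolic ribosomal protein genes lost 1 of 72 promoters and replication-dependent histone genes 1 of 62, which is 1.39% (interval 0.0352 to 7.50) and 1.61% (0.0408 to 8.66) against the background of 20.2%. These families also had the strongest WT peaks, with median folds of 7.89 and 17.2. The member in each was an unusual gene of its family: Rpl39l, a testis-enriched copy of the large subunit gene Rpl39, at 4.37, and Hist3h2ba, outside the main histone clusters, at 5.08. Splicing and hnRNP genes lost 9 of 85 (10.6%) and DNA replication and cell cycle genes 10 of 81 (12.3%), among them Cdc16, a subunit of the anaphase-promoting complex, at a fold of 5.87. The interval of the cell cycle list (6.08 to 21.5) includes the background, and this list took in Cdc42se1, a Cdc42 effector. Of the 15 pluripotency factors with a WT peak, 14 kept it. The exception was Utf1, a chromatin protein of undifferentiated cells, at 3.24, and the interval of this share (0.169 to 31.9) also includes the background.

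At the other end, the list drawn by name for collagens, laminins and integrins lost 10 of 17 promoters, 58.8% (interval 32.9 to 81.6), of which 8 are collagens or integrins. The median WT fold over the 17 was 3.68, beside 4.39 over all WT promoters. The members were Col5a1 (3.83), Col4a1 and Col4a2 (3.68, a divergent pair of basement membrane collagens on 1 shared peak), Col20a1 (3.48), Col9a3 (3.40), Col7a1 (3.11), Itgb7 and Itga6. The other 2 were Col4a3bp, a ceramide carrier, at 4.39, and Itgb1bp1, an integrin-binding protein, at 3.24. Beside these, 3 of 20 fibroblast genes that mark feeder cells had a WT peak and Col5a1 was lost, and of 18 primitive endoderm genes 4 had one and Col4a1 and Col4a2 were lost. The part of such cells in the calls was not tested. Cadherins and protocadherins lost 4 of 9, ion channel subunits 10 of 28 (35.7%, interval 18.6 to 55.9) and homeobox genes 6 of 16 (37.5%, interval 15.2 to 64.6). These 3 intervals include the background, and the channel list took in Trpc4ap, which encodes a channel-associated protein. Promoters gained in KO cells numbered 0 for cadherins, 11 for ion channels and 4 for homeobox genes, and 3 for the collagen, laminin and integrin list. The cadherins were Cdh2, the neural cadherin, at 3.58, Celsr2 at 3.11, Celsr1 at 3.05 and Pcdhgc3 at 2.66.

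Developmental regulators were present in small numbers. The homeobox members were Isl1 (3.87), Pou3f1 (3.69), Pitx1 (3.43), Hoxa13 (3.16), Six4 (3.11) and Nkx6-2 (2.48). Foxh1, the DNA-binding partner of Smad proteins in Nodal signalling, stood at 4.30. Sox1 at 3.95 and Pou3f1 were the 2 markers of early differentiation lost of 9 (interval 2.81 to 60.0), of which 5 were kept. Sox11, Sox18, Sox4 and Sox8 were lost at folds from 3.53 to 3.73. The list of Fox, Sox, Gata, Tbx and Klf factors lost 9 of 33 (27.3%, interval 13.3 to 45.5). It kept 24 and gained 6. In the Wnt pathway 5 of 24 were lost (20.8%, interval 7.13 to 42.2) and 1 was gained. Among the lost were Axin2, a feedback inhibitor and common readout of the pathway, at 3.30 and Nkd1 at 3.87. In the TGF-beta and BMP pathway 3 of 31 were lost (9.68%, interval 2.04 to 25.8) and 9 were gained. The lost genes were the ligands Bmp8a and Gdf7 and the BMP antagonist Nog, all between 3.24 and 3.33. Myc was the single immediate early gene lost of 12 (interval 0.211 to 38.5), with a WT fold of 5.30 and the summit 3 bp upstream of its TSS. The interval of each list in this paragraph includes the background of 20.2%.

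Metabolic and regulatory families lay near the background. Zinc finger genes lost 46 of 179 (25.7%, interval 19.5 to 32.8), the largest number of lost promoters of any list. They were led by Zfp281 (7.16), Zfp422 (5.72) and Zfp609 (5.15). Zfp646 and Zfp668 shared 1 peak at 5.03. Respiratory chain genes lost 17 of 62 (27.4%, interval 16.9 to 40.2), led by Ndufb7 of complex I at 5.48 and Atp5c1, the gamma subunit of ATP synthase, at 5.13. Solute carriers lost 29 of 115 (25.2%), ubiquitin ligases and proteases 36 of 198 (18.2%), GTPase regulators 18 of 102 (17.6%) and mitochondrial ribosomal proteins 9 of 54 (16.7%). Among the lipid synthesis genes 4 of 16 were lost, Elovl6 at 4.04, Hmgcs1 at 3.83, Cyp51 at 3.60 and Scd2 at 3.48. Of the list drawn up for the H2B deubiquitylase module 1 of 6 was lost, Atxn7l3b, a paralogue of the deleted gene, at 3.56. The study does not name Atxn7l3b among the subunits of the module. Of the H2B ligase and PAF genes 0 of 7 were lost. No family share was adjusted for the strength of its peaks.

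**Figure D2:**
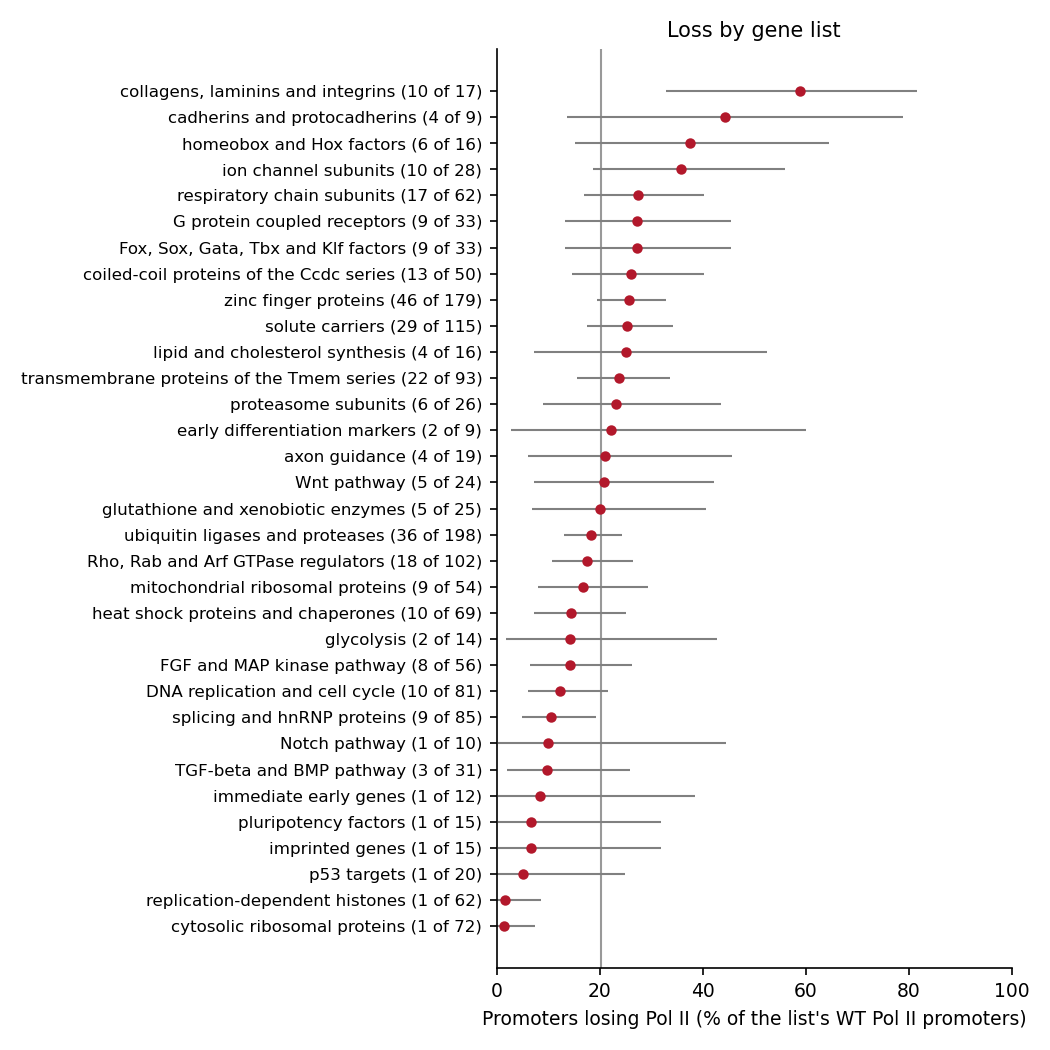
Share of each gene list's WT Pol II promoters that had no KO peak within 5 kb in mESCs (percent, points), with exact 95% intervals over genes (lines) for lists with at least 9 WT promoters; counts are in brackets and the vertical line is the 20.2% over all WT promoters. The name-based list of collagens, laminins and integrins, 2 of whose 10 lost genes are neither, lies highest at 58.8% and cytosolic ribosomal proteins lowest at 1.39%.

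Some members kept Pol II elsewhere in the gene. A KO peak lay within 1000 bp of another annotated TSS of the same gene for 59 of 1481 members (3.98%). Of the 1481 members, 1300 reach past the first 5000 bp, which the rule leaves free. There 288 of the 1300 (22.2%) had a WT Pol II peak and 150 (11.5%) a KO peak. Of these, 114 had both, 174 WT alone and 36 KO alone. Of the 4848 kept genes that reach as far, 24.0% had one in WT and 12.8% in KO cells. These shares move with the settings. Counted past the first 1000 bp and over all members, the WT share went from 27.3% to 17.5% with equal numbers of peaks and to 18.2% among isolated genes. The KO share went from 10.1% to 6.65% among isolated genes, to 5.46% with the TSS of every transcript, and to 15.4% and 5.02% with the KO-free distance at 1000 and 20000 bp. The lower KO share was thus present whether or not the promoter peak was lost, and it came from the same 2 libraries as the rule.

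The longest stretches of KO Pol II lay in genes such as Slc25a12, a mitochondrial aspartate and glutamate carrier, where peaks beyond the first 5000 bp covered 12006 bp in WT and 8622 bp in KO cells. In Mast1 they covered 5583 and 3361 bp, in Ppp2r3d 3706 and 2350 bp, in Serbp1 3553 and 2267 bp, and in Homer3 3975 and 2029 bp. All 5 had more in WT. Mast1 and Serbp1 had no promoter peak in either MEF library, although Serbp1, an mRNA-binding protein gene, had H2Bub1 peaks over 18.3% of its length in WT MEFs. Usp7, which encodes a deubiquitylase that acts on p53 and MDM2, had the same arrangement. Its annotated start carried a WT mESC peak of 4.02 and no MEF peak, while its body carried 3240 bp of WT and 987 bp of KO Pol II peaks, and H2Bub1 peaks covered 91.2% and 91.3% of it.

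H2Bub1, which the rule did not use, was called over fewer members than other promoters with a WT Pol II peak, and covered more of the genes in KO than in WT mESCs in both sets. In WT mESCs an H2Bub1 peak touched 1252 member genes (84.5%, interval 82.6 to 86.3), and in the KO library 1335 (90.1%, interval 88.5 to 91.6), against 91.9% and 96.4% over all 7336 WT promoters. The median share of the gene covered by H2Bub1 peaks was 9.89% in the WT and 26.6% in the KO library, with quartiles of 1.51% and 33.3% and of 6.69% and 59.9%. Over all WT promoters the medians were 17.6% and 40.3%. The presence of a peak depended on weak calls: with a −log10 q of at least 3 asked of every list, 28.8% of members had an H2Bub1 peak in WT and 68.1% in KO mESCs. The KO H2Bub1 list as a whole held more and wider peaks, 48952 with a median of 1355 bp against 40979 with 957 bp.

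The covered share was higher in KO cells for 1159 of 1481 members (78.3%, interval 76.1 to 80.3), against a background of 83.3% over all 7336 WT promoters. It was lower for 225 (15.2%), against 11.5%. The remaining 97 were equal, 87 of them with no H2Bub1 peak in either library. Set against the kept genes, of which 84.7% were higher, the difference was −6.49 percentage points (95% interval −8.86 to −4.20). Genes with no H2Bub1 peak in either library cannot be higher. They were 5.87% of members and 1.09% of kept genes, and are part of this difference. The promoters gained in KO cells stood on the other side, with 91.2% higher and 5.27% lower. A peak in WT and none in KO cells was found for 59 members (3.98%) and 0.830% of kept genes. The reverse, a peak in KO and none in WT cells, was found for 142 members (9.59%) and 5.03% of kept genes.

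The difference between lost and kept genes was present within bands of peak strength. In the lowest band of WT Pol II fold, the H2Bub1 covered share was higher in KO cells for 77.4% of lost and 90.5% of kept genes, a difference of −13.1 points (interval −17.2 to −9.13). In the next band it was 77.7% and 91.1%, in the middle band 82.3% and 89.6%, and in the fourth 73.9% and 85.5%. The interval of the difference left out zero in each of these 4 bands. Genes without an H2Bub1 peak in either library are counted here too. The highest band held 6 members and is not compared. An H2Bub1 peak anywhere in the gene was likewise less frequent in lost than in kept genes in KO cells, at 89.7% and 98.6% in the lowest band and 90.1% and 99.2% in the fourth.

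Single genes went both ways. The largest differences towards KO in covered share among genes of at least 5000 bp were at Efna3, a membrane-bound ligand of Eph receptors, from 4.96% in WT to 100% in KO cells, and at AC124108.1 from 5.67% to 94.4%. Mettl17, a mitochondrial ribosome assembly factor, went from 0% to 87.5%, Timm22, the channel of a mitochondrial import complex, from 0% to 86.2%, and Nrtn, the ligand neurturin, from 15.1% to 100%. The largest differences towards WT were at Cx3cl1, the chemokine fractalkine, from 35.9% to 0%, Plpp2 from 73.1% to 43.2%, Tmem106a from 39.3% to 14.1%, Lhfpl5 from 25.2% to 0% and Pgap3 from 25.0% to 0%. Nrtn had its nearest KO Pol II peak just 5848 bp from the TSS, with 358 bp of KO peaks in the body.

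The members named above differed among themselves in H2Bub1. Over Zfp281 the peaks covered 58.3% of the gene in WT and 61.1% in KO mESCs, and over Gab1 72.1% and 83.6%. Rrs1 was at 100% in both. Vcpkmt went from 6.48% to 72.2% and Ddah2 from 67.5% to 100%. Myc, a gene of 4984 bp and so just under the length limit of the ranking, went from 87.6% to 34.3%. Hist3h2ba, also a short gene, went from 74.4% to 0%, as did Ndufa4l2, a hypoxia-induced paralogue of Ndufa4, from 70.4% to 0%. Over Foxh1 the share was 71.3% and 100% and over Utf1 it was 97.4% and 100%.

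**Figure D3:**
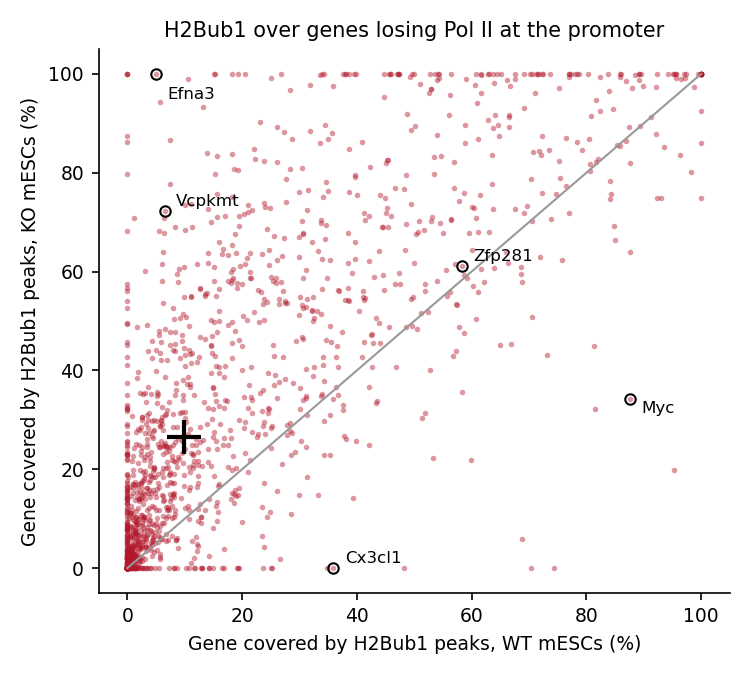
Share of each member gene covered by H2Bub1 peaks in WT (x) and KO mESCs (y), in percent, with 1 point per gene (n = 1481), the line of equality and a cross at the 2 medians (9.89% and 26.6%). Of the points, 1159 lie above the line and 225 below; circles mark 5 genes named in the text.

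In MEFs, which the rule did not use either, most of the same promoters carried Pol II in both genotypes. A WT MEF peak was present at 1272 of the 1481 (85.9%, interval 84.0 to 87.6), against 94.6% of all WT mESC promoters, and a KO MEF peak at 1208 (81.6%). Kept promoters had 97.2% and 96.5%. By state in MEFs, 1186 members had a peak in both genotypes, 74 in WT with none within 5000 bp in KO, 12 in WT with a KO peak between 1000 and 5000 bp, 19 in KO alone, 3 in KO with a WT peak between 1000 and 5000 bp, and 187 in neither. The 187 are 12.6% of the members, where 2.26% of kept promoters were in that state. MEF folds were also lower than for kept promoters, with a median of 11.9 against 16.7 in WT. Within bands of WT mESC fold, the WT MEF share was 78.8% for lost and 94.4% for kept promoters in the lowest band and 91.0% and 97.1% in the middle band. In the fourth it was 95.5% and 98.0%, and there the interval of the difference (−8.22 to 0.679 points) took in zero.

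Among members with a MEF peak in both genotypes, KO fold was below WT at 814 and above it at 372. On the log2 scale, KO less WT fold had a median of −0.25 (interval −0.27 to −0.20), beside −0.22 over all mESC WT promoters with both MEF peaks. The interval over the members takes in the value over all. Among those with strong WT MEF peaks, Atxn7l3b was at 30.6 in WT and 18.8 in KO MEFs, and Trib3, a stress-induced pseudokinase, at 30.5 and 9.57, the lowest KO to WT ratio of the 5 named here. Fbxl18 went from 27.3 to 13.2, Uhrf1bp1l from 26.7 to 20.5 and Samd4 from 26.6 to 18.2. Myc, at 25.4 and 15.5 in MEFs, also kept its peak there, and its H2Bub1 covered share was 81.9% in WT and 100% in KO MEFs, opposite in direction to that in mESCs.

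Loss in both cell types was found at 74 members, 5.82% of the 1272 with a WT MEF peak (interval 4.60 to 7.25). Over all autosomal MEF promoters the background was 6.77% (778 of 11497), so the members as a set were close to it. Promoters without any mESC peak make up much of that background. Among the promoters with a WT peak in mESCs, 1.99% were lost in MEFs, and among those kept in mESCs 1.11% (61 of 5507), a difference from the members of 4.71 points (interval 3.45 to 6.16). With only genes at least 5000 bp from another protein-coding gene the share was 10.8% for lost promoters, which is 8.72 points above the kept ones (interval 5.80 to 12.2). In the 3 lower bands of WT mESC fold the shares were 8.44%, 4.80% and 4.76% for lost promoters and 2.48%, 1.06% and 1.15% for kept ones. In the fourth band, with 2 of 106 and 11 of 1307, the interval of the difference took in zero. These bands match mESC fold alone. WT MEF fold, with a median of 11.9 for lost and 16.7 for kept promoters, was not matched.

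Among the promoters lost in both cell types, Bfsp1, a lens filament protein, had the strongest WT MEF peak at 18.0 with a WT mESC peak of 4.73, and Sox11, a factor of neural and mesenchymal progenitors, had 14.4 and 3.73. Mgll, the monoacylglycerol lipase, had 10.5, Rnf144a 9.45, Arhgap20 8.76 and Mettl24 8.61. The limb and genital homeobox gene Hoxa13 was also among the 74, with 8.42 in WT MEFs. Weaker WT MEF peaks among them were at the calcium channel subunit Cacng7 (6.34), Chrna7 (5.33) and the Notch ligand Dll3 (4.83). Sox8 (3.78), Isl1 (3.55), Axin2 (3.54) and Nog (2.77) were weaker still. All these weaker peaks lay below 8.30, the lower quartile of WT MEF fold over members with a WT MEF peak. Over Sox11, H2Bub1 peaks covered 24.3% of the gene in WT and 10.3% in KO mESCs, and 13.8% and 20.5% in WT and KO MEFs. Over Arhgap20 there was none in either mESC library.

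**Figure D4:**
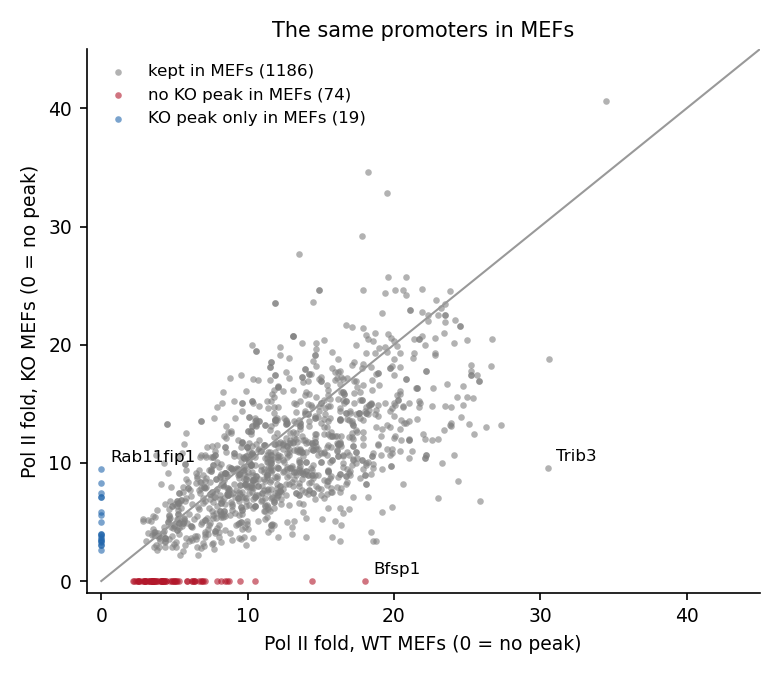
Pol II fold at the member promoters in WT (x) and KO MEFs (y), as linear fold enrichment with 0 for no peak, coloured by state in MEFs; the line marks equality. The 1186 promoters with both peaks spread along the line with 814 below it, 74 lie on the x axis and 19 on the y axis; the 187 without a MEF peak and the 12 and 3 whose peak in the other genotype lay 1000 to 5000 bp away are not drawn.

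In MEFs too, H2Bub1 was called over a smaller share of members than of kept genes. A peak touched 44.8% of the members in WT and 79.1% in KO MEFs, and 63.6% and 93.1% of the kept genes. The median covered share was 0% in WT and 33.4% in KO MEFs. It was higher in KO MEFs for 1166 members (78.7%), against a background of 89.0% over all WT mESC promoters. It was lower for 7 (0.473%), against 0.424% of kept genes. No H2Bub1 peak in either MEF library was found for 308 members (20.8%) and 6.76% of kept genes. Such genes are in the denominators above and cannot be higher or lower.

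**Figure D5:**
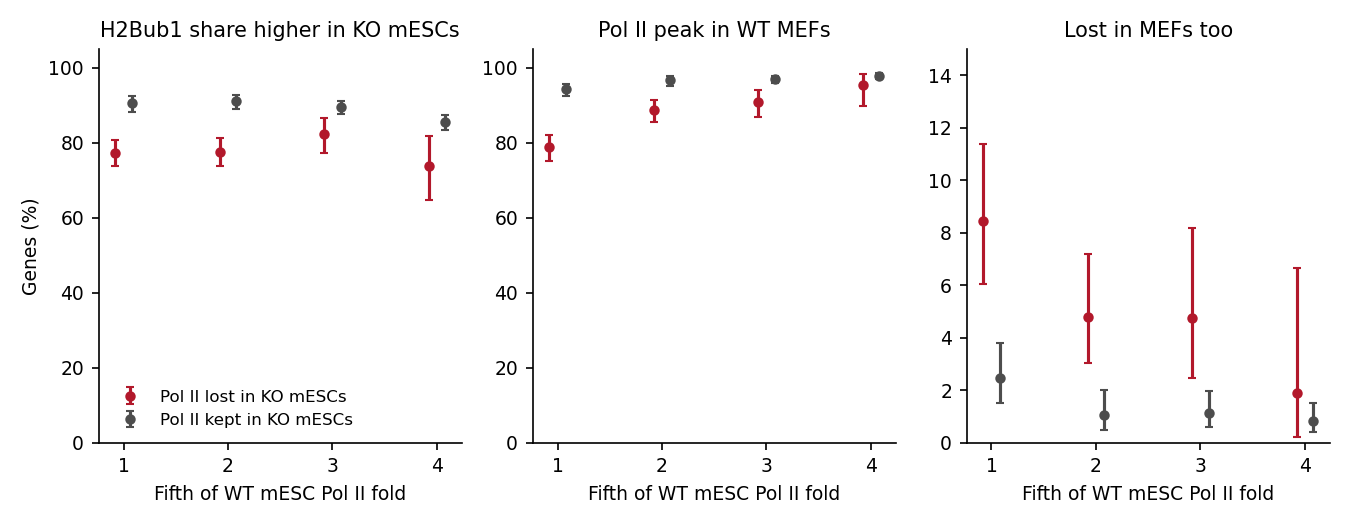
Lost (red) and kept (grey) mESC promoters compared within the 4 lower bands of WT mESC Pol II fold: percent with a higher H2Bub1 covered share in KO mESCs, percent with a Pol II peak in WT MEFs, and percent of those with a WT MEF peak that had none within 5 kb in KO MEFs; bars are exact 95% intervals over genes. In the lowest band the pairs are 77.4% and 90.5%, 78.8% and 94.4%, and 8.44% and 2.48%.

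The sequence around the TSS was also outside the rule. In the 300 bases from 250 before to 50 after the TSS, the median ratio of observed to expected CpG was 0.733 (interval 0.720 to 0.747) for lost, 0.827 (0.821 to 0.832) for kept and 0.540 for all autosomal promoters. A ratio under 0.5 was found in 315 members (21.3%), 11.3% of kept and 47.2% of all promoters, so lost exceeded kept by 9.97 points (interval 7.74 to 12.3). In the lowest band of WT fold it was 26.4% and 12.7%, and in the fourth 13.5% and 10.8%, with overlapping intervals. A ratio under 0.5 was found in 109 of the 209 members without a WT MEF peak (52.2%) and in 206 of the 1272 with one (16.2%). The kept promoters were split the same way, with 45.5% of those without and 10.3% of those with a WT MEF peak, so lost exceeded kept among promoters with a WT MEF peak too. Of the printed examples, Lat, an adaptor of the T cell receptor, had a ratio of 0.310, while Zfp281 had 0.788 and Elavl3 0.922.

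Of 9 short motifs searched by exact letters on both strands of the same window, the GC box GGGCGG differed most between the sets. It was present in 60.6% of lost, 68.4% of kept and 43.7% of all autosomal promoters (lost less kept −7.81 points, interval −10.6 to −5.02). The ETS motif CCGGAAG was in 20.5%, 19.3% and 11.0%. CCAAT was in 38.6% of each of the 3 sets and TATAAA in 6.08%, 6.66% and 12.7%. The NRF1 motif CGCATGCG was in 3.92%, 5.00% and 2.33%, the E box CACGTG in 10.2%, 11.4% and 7.82%, the cAMP response element TGACGTCA in 3.51%, 4.17% and 2.43%, the octamer ATGCAAAT in 1.15%, 1.55% and 1.59%, and the YY1 motif AAGATGGC in 4.39%, 5.60% and 2.93%. For these 8 the interval of the difference between lost and kept took in zero. GGGCGG contains CG and so is not independent of CpG content.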

How the data were processed

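Pol II and H2Bub1 ChIP-seq peak lists of WT and Atxn7l3-/- mESCs and MEFs were used as deposited, 1 library each (8 of 16 samples). Inputs and Pol II Ser2P were not analysed here. Per the submitters' processing notes, the authors used bcl2fastq 2.17.1.14, Bowtie 1.0.0 and MACS2 2.1.1.20160309 on mm10. The MACS2 control and thresholds, and read depth, are not given in the sources used here. The deposited lists hold the fold (a linear ratio, at the summit for Pol II, averaged over the peak for H2Bub1), −log10 p and −log10 q, and a display score, which was not used. Normalization was by size factors over intergenic regions (DESeq2, run by the authors) for H2Bub1 and by mapped reads for Pol II. The methods place it ahead of peak calling. How it entered the calls is not given in the sources used here.

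TSSs and gene ends came from GENCODE M21 gene records. Overlap of at least 1 base with the window counted, and the peak of highest fold was taken. The covered share is the percent of the gene inside H2Bub1 peaks. The bands are 5 quantile groups of WT fold. Intervals are exact (Clopper-Pearson) for shares, binomial for medians and combined from both shares for differences. Scripts (Python 3.11.15, pandas 2.3.3, SciPy 1.17.1) were tested on simulated data. Peaks were called per library by the authors, so a call near threshold in 1 library can be missed in another.

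The members, gene lists and tests were chosen with earlier results of these data known. Named genes were, by rule, the 12 highest WT folds, 3 on each side of the distance limit, 6 each of the highest MEF folds kept and lost, 5 each of the largest H2Bub1 rises and falls, 5 with most KO Pol II in the body, up to 8 per gene list and the largest groups sharing a peak or adjacent. Sequences were printed for the 3 highest WT folds kept and the 3 absent in MEFs, with the summit within 250 bp and chromosome 18 left out. The 19 promoters gained in KO MEFs and some further examples, such as Usp7 and Ndufa4l2, were named after their values were seen. A result that the rule would name is not reported here.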

Additional observations from a re-analysis of the deposited data

Results flagged for a closer look

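At 19 promoters the 2 cell types went opposite ways: a WT peak and no KO peak within 5000 bp in mESCs, and a KO peak and no WT peak within 5000 bp in MEFs. The difference was not tested, since each library stands alone. The strongest in KO MEFs were Rab11fip1 at a fold of 9.44, with 2.91 in WT mESCs, and Lpl, the lipoprotein lipase, at 8.33 and 2.40. Prkcz, an atypical protein kinase C of epithelial polarity, was at 7.46 and 3.36, and Lsr, a protein of tricellular junctions, was at 7.14 and 3.11 on a peak shared with Fam187b. Pou3f1 was at 5.83 and 3.69, Cited4 at 5.56 and 3.08, and Dpp4 at 4.98 and 3.12. The remaining 11 lay between 2.61 and 4.02 in KO MEFs. These 19 are 1.28% of the members, close to the 1.15% of all autosomal genes gained in KO MEFs. Of the promoters without a WT MEF peak, 19 of 209 lost ones (9.09%, interval 5.56 to 13.8) and 24 of 156 kept ones (15.4%, interval 10.1 to 22.0) were gained.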

How the results depend on the processing

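No paired analysis was possible because each group is 1 library. Under the other settings of the member rule, the number of lost promoters ran from 989 to 1673, except that 511 remained when only genes at least 5000 bp from another protein-coding gene were taken, because fewer genes were then examined. Adding chromosome X gave 1483. The lost share of WT promoters was 18.8% with a −log10 q of at least 3 asked of the WT list alone and also with the WT peak from 100 bp upstream to 300 bp downstream. It was 15.9% with equal numbers of peaks, and 22.8%, 21.8%, 17.6% and 13.8% with the KO-free distance at 1000, 2000, 10000 and 20000 bp. By band of WT fold it was 38.2%, 35.8%, 18.7%, 7.55% and 0.414%. The number of gained promoters, set by an alternative chosen after seeing the data, was 1443 with equal numbers of peaks.

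The share of members with a WT MEF peak was 89.6% with equal numbers of peaks and 81.4% among isolated genes. Loss in MEFs too was 4.51%, 4.54% and 10.8% with equal numbers of peaks, the narrow window and isolated genes. A higher H2Bub1 covered share in KO mESCs was found for 65.4% with −log10 q of at least 3 in every list and 80.8% with the narrow window; the cause was not tested. With H2Bub1 over at least 10% of the gene asked, the share of members was 49.8% in WT and 70.3% in KO mESCs, against 84.5% and 90.1% for any peak. The gap between lost and kept promoters kept its sign in all 13 settings: −15.6 to −3.87 points for higher H2Bub1, −13.7 to −8.05 for the WT MEF peak and 3.61 to 8.72 for loss in MEFs too. The H2Bub1 gap counts genes without an H2Bub1 peak in either library as not higher. What depth limits cannot be read from these lists.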
